A study of Mus musculus with 20 samples.

Results

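Apolipoproteins are the proteins that coat lipoprotein particles, and the genes described here make the liver's main apolipoproteins together with the transfer protein that loads lipid onto very-low-density lipoprotein (VLDL). The 10 genes were chosen by name: Apob and Mttp for VLDL assembly, Apoc1, Apoc2, Apoc3, Apoe and Apoa5 for the exchange and clearance of triglyceride-rich particles, and Apoa1, Apoa2 and Apoa4 for high-density lipoprotein (HDL) and related particles. Of these 10 genes, 9 had a probe set on the array, 1 each, among 19505 genes with one; Apoc2 has no entry in the probe annotation used and was not analysed here. All 9 lay above the limit for dim genes and were tested among 11844 genes.

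The liver secretes VLDL to carry triglyceride to other tissues. Microsomal triglyceride transfer protein adds lipid to apolipoprotein B as it is made, and apolipoprotein B without lipid is degraded in the cell. The small exchangeable apolipoproteins then govern how fast the particle is lipolysed and taken up again: apolipoprotein A5 promotes and apolipoprotein C3 restrains the removal of triglyceride by lipoprotein lipase, and apolipoprotein E is a ligand for hepatic uptake.

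RNA came from livers of 20 male ob/ob mice, which lack leptin, overeat and become obese with fatty livers, so every group, filtered air included, is leptin-deficient. There were 5 mice in each of 4 groups, with 1 array per mouse: PM2.5 (airborne particles under 2.5 micrometres) together with metformin, called the combined group below; PM2.5 alone; metformin, a drug that lowers hepatic glucose output; and filtered air. The protocol text, shared by all samples, describes a particle chamber used 6 hours per day over 2 weeks, metformin given in the drinking water in amounts set by body weight, and food and water without restriction. It gives no age, particle concentration or metformin amount, the metformin label names no air, and no label gives a litter, batch or pairing, so mouse numbers 1 to 5 only name mice within a group. All values are the deposited log2 signals, on which a difference of 1 is a doubling.

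Of 10 hepatocyte marker genes 9 were on the array, and all 9 lay above the 95th percentile of the negative-control probe sets (mean log2 8.36), with means between 13.05 and 18.90. Their summed log2 level was 21.03 to 21.20 in the combined group, 21.06 to 21.13 with PM2.5, 21.09 to 21.17 with metformin and 21.03 to 21.07 in filtered air. This is the log2 of the summed unlogged signals, so the brightest genes weigh most. In the combined group 2 of the 9, Hnf4a and Ambp, rose against filtered air and 1, Ambp, against metformin. Of all tested genes 18.7% and 9.69% rose. Without combined mice 2 and 4, 1 and 0 markers rose. The arrays of combined mice 2 and 4 stood apart in their negative controls, with medians of 4.79 and 4.69 against 4.34 to 4.59 on the other 18. Calls that involve this group were therefore also computed without them, and values that moved are given both ways. Combined mouse 5, which stayed in those fits, had the largest SD of deviations from group means over tested genes. It was 0.45 for mouse 5, 0.41 for mouse 2 and 0.35 for mouse 4. In bulk liver, fewer cells of a type and less RNA per cell cannot be told apart.

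Sequences are shown first for Apoa5, the only one of the 9 genes whose level changed in the tests below, and for Apoa1 and Apoa4, which lie with it in 1 gene cluster on chromosome 9 in the order Apoa1, Apoc3, Apoa4, Apoa5. They are the 250 bases before the annotated start from RefSeq, build GRCm38.p6, all on the plus strand and written 5′ to 3′ in the direction of transcription: chr9:46268358-46268607 for Apoa5, chr9:46228380-46228629 for Apoa1 and chr9:46240594-46240843 for Apoa4. Capitals mark matches found on either strand. The letters searched for the TATA box were TATAAA, and for the box bound by nuclear factor Y they were CCAAT. An E-box was read as CACGTG, and a half-site of nuclear receptors as AGGTCA. The variant of that half-site with another first base was read as GGGTCA. The core sought for HNF4-type receptors was AAAGTCC, that for forkhead factors was GTAAACA, and that for factors of the cAMP response was ACGTCA.
Apoa5: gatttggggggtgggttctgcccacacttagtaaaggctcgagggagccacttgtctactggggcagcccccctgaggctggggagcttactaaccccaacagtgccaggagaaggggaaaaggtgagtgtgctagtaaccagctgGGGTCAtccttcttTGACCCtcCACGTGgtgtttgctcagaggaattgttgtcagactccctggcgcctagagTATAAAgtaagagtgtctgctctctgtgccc
Apoa1: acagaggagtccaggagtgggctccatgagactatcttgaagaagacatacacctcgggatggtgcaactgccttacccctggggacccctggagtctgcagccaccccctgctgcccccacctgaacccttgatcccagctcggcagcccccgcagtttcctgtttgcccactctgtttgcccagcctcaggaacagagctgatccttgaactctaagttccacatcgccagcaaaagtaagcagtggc
Apoa4: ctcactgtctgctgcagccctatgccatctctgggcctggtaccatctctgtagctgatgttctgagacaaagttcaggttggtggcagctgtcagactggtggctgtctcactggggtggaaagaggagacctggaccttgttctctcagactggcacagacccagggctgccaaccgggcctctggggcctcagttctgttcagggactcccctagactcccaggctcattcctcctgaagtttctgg
The Apoa5 window held TATAAA 31 bases before the start, CACGTG at 82 bases and GGGTCA on both strands, at 104 bases as written and at 90 bases as its reverse complement. None of these matches overlapped. Apoa5 has 2 annotated starts, and the window shown is that of start 1. From start 2 the same matches lie at 56, 107, 129 and 115 bases. Over 32851 promoter windows of the same length, 12.4% held TATAAA, 6.02% CACGTG and 11.6% GGGTCA. No motif searched was found in the Apoa1 and Apoa4 windows, which says only that these letters are not there. A match is a description of the sequence and not evidence that a factor binds.

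Apoa5, which codes for the apolipoprotein that promotes lipolysis of triglyceride-rich particles, was higher with metformin and with PM2.5 plus metformin than in filtered air. Its log2 signals in mice 1 to 5 were 15.15, 15.45, 15.53, 15.28 and 15.22 in the combined group. They were 15.09, 15.14, 14.91, 15.08 and 15.04 with PM2.5 alone, and 15.54, 15.62, 15.10, 15.03 and 15.47 with metformin. In filtered air they were 14.88, 14.73, 14.55, 14.87 and 15.05. Every combined mouse lay above every filtered-air mouse, a separation shown by 20.8% of tested genes. Every combined mouse also lay above every PM2.5 mouse, combined mouse 1 only just (15.148 against 15.144 in PM2.5 mouse 2). The metformin group held 3 mice at 15.47 to 15.62 and 2 mice at 15.10 and 15.03, within the range of the PM2.5 mice. The means were 15.33 ± 0.16 in the combined group, 15.05 ± 0.09 with PM2.5, 15.35 ± 0.27 with metformin and 14.81 ± 0.19 in filtered air (SD, n = 5 each), so the order from high to low was metformin, combined, PM2.5, filtered air.

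Differences were tested with limma over all 20 arrays and 11844 genes, with Benjamini-Hochberg adjustment, and the words rose, raised and fell are kept for an adjusted p under 0.05. Across the 4 groups the moderated F test gave Apoa5 an adjusted p of 0.0104, and 1 of the 9 genes passed, where 32.1% of all tested genes did. Metformin raised Apoa5 by 0.54 ± 0.14 on the log2 scale (SE, 95% interval 0.26 to 0.82; 1.45-fold; limma adjusted p = 0.0317), with 4 of 5 metformin mice above all filtered-air mice. It was the 1 of 9 genes called, against 3.15% of all tested genes. The combined treatment raised it by 0.51 ± 0.14 over filtered air (0.23 to 0.79; 1.43-fold; limma adjusted p = 0.00573), again as the 1 of 9 called, against 34.9% of all tested genes.

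The metformin call lay near the threshold. It was lost (limma adjusted p 0.0640 to 0.0886, difference 0.47 to 0.55) when any 1 of filtered-air mice 1, 2 or 3 or metformin mice 1, 2 or 5 was left out, and with only the 10 arrays of these groups in the fit (adjusted p = 0.0619). The combined call was kept when any 1 mouse was left out and, at 0.48 (adjusted p = 0.0350), without combined mice 2 and 4. With the negative-control median of each array as a covariate, the Apoa5 difference was 0.56 in the combined comparison and 0.56 in the metformin comparison, with limma adjusted p of 0.0528 and 0.0665. These medians were 4.36 to 4.43 in filtered air, 4.45 to 4.54 with metformin and 4.44 to 4.79 in the combined group. Filtered air thus did not overlap either group in the covariate. Where a call in these comparisons is lost with the covariate, here or for other genes, array and treatment cannot be told apart. PM2.5 lay at 4.34 to 4.52.

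Neighbouring levels of Apoa5 did not separate further. PM2.5 alone stood 0.24 above filtered air (95% interval −0.04 to 0.52, limma adjusted p = 0.306), with 3 of 5 PM2.5 mice above all filtered-air mice. The combined group stood 0.27 above PM2.5 alone (−0.01 to 0.56, adjusted p = 0.195), although 5 of 5 combined mice lay above all PM2.5 mice, combined mouse 1 only just, as in 6.34% of tested genes. Without combined mice 2 and 4 this difference was 0.25 (adjusted p = 0.497). The combined group differed from metformin by −0.03 (−0.31 to 0.25, adjusted p = 0.919; −0.05 without combined mice 2 and 4), and PM2.5 from metformin by −0.30 (−0.58 to −0.02, unadjusted p = 0.0370, adjusted p = 0.280). The interaction, the metformin difference under PM2.5 minus that without PM2.5, was −0.26 (−0.66 to 0.13, adjusted p = 0.594; −0.29 without these 2 mice), so the 2 metformin differences were not shown to differ in size.

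**Figure D1:**
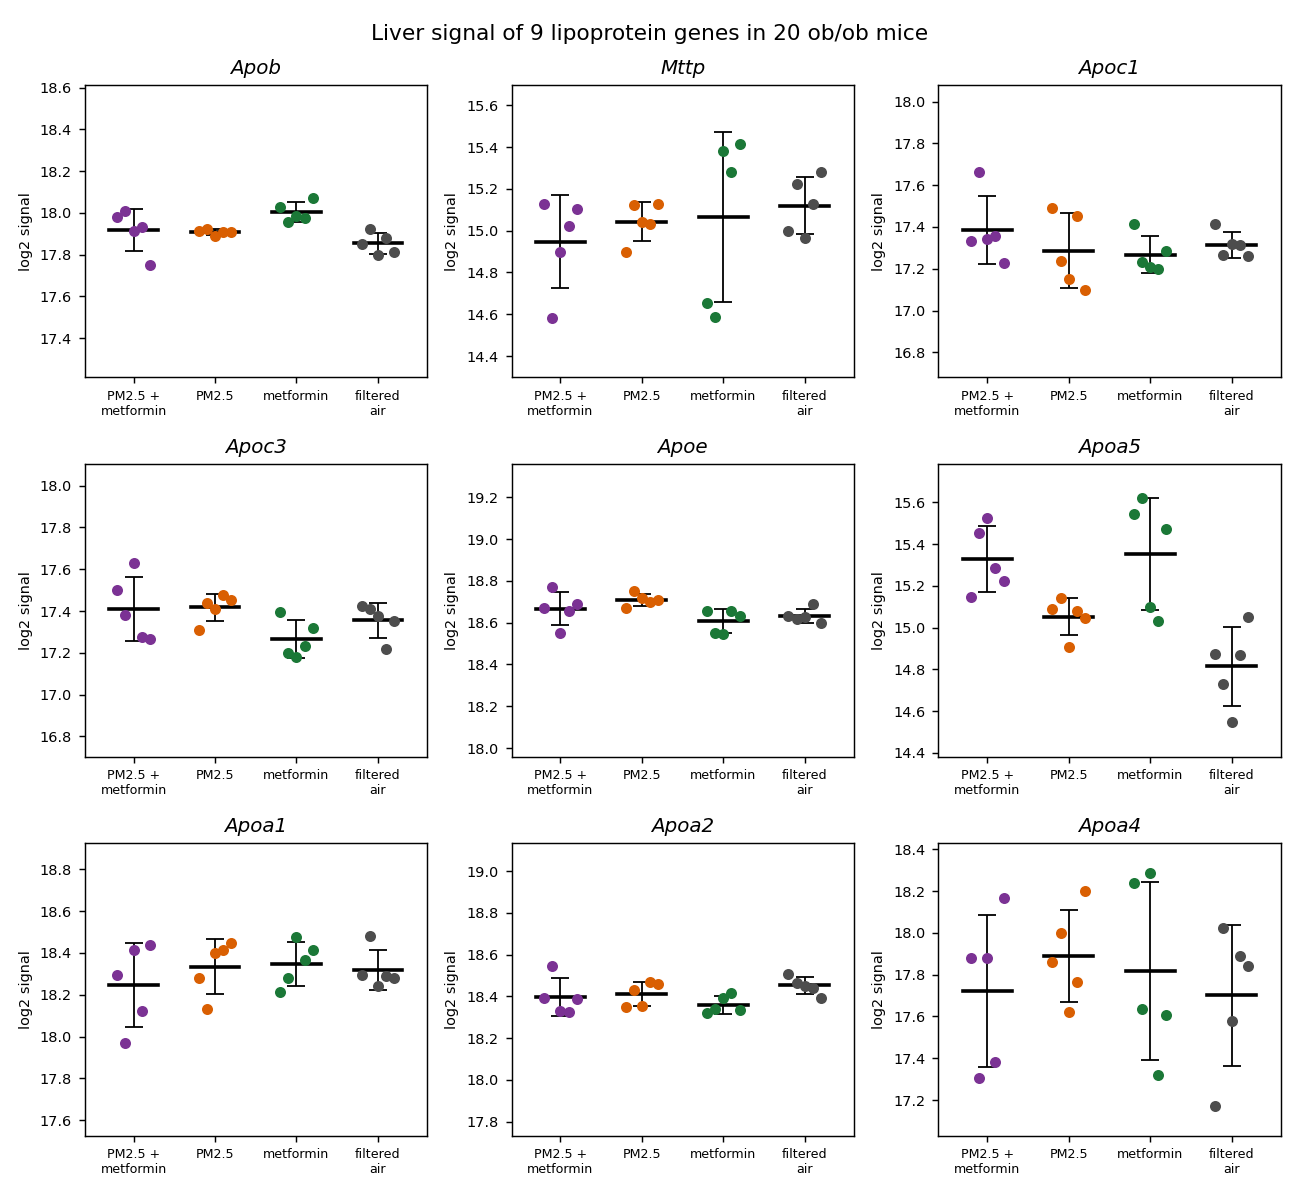
Log2 signal of each of the 9 genes (vertical axis, the same span in every panel) by group, with 1 point per mouse and the mean ± SD (n = 5) as lines. Apoa5 is the gene whose combined mice (15.15 to 15.53) all lie above the filtered-air mice (14.55 to 15.05), while Apoa4 and Mttp spread widely within groups.

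Apob, the structural protein that stays on each VLDL particle, kept a narrow range. Its signals were 17.98, 18.01, 17.92, 17.93 and 17.75 in combined mice, 17.91, 17.92, 17.89, 17.91 and 17.91 with PM2.5, 18.03, 17.95, 17.98, 17.98 and 18.07 with metformin, and 17.85, 17.92, 17.80, 17.88 and 17.81 in filtered air. All 5 metformin mice lay above all filtered-air mice, as in 6.75% of tested genes, and above all PM2.5 mice, whose SD was 0.01. The metformin difference from filtered air was 0.15 ± 0.09 (SE; 95% interval −0.05 to 0.35) and did not pass (limma adjusted p = 0.418), nor did that of PM2.5 from metformin (−0.09, adjusted p = 0.691), where 4.23% of tested genes had groups that did not overlap. No alternative setting called Apob in any comparison, and its lowest adjusted p over them was 0.257.

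Mttp, the large subunit of the transfer protein that lipidates apolipoprotein B, did not pass in any comparison. It read 15.13, 14.58, 14.90, 15.02 and 15.11 in combined mice, 14.90, 15.12, 15.04, 15.03 and 15.13 with PM2.5, 14.66, 14.59, 15.38, 15.28 and 15.41 with metformin, and 14.9999, 15.22, 14.97, 15.13 and 15.28 in filtered air. Metformin mice 1 and 2, at 14.66 and 14.59, lay below every filtered-air and PM2.5 mouse, while the other three lay above all of them, mouse 4 only just. The same 2 mice had the highest Apoa5, and combined mouse 2 was as low in Mttp. The means were 14.95 ± 0.22 in the combined group, 15.04 ± 0.09 with PM2.5, 15.06 ± 0.41 with metformin and 15.12 ± 0.14 in filtered air (SD, n = 5 each), so no group stood apart. The widest gap, the combined group minus filtered air, was −0.17 ± 0.16 (SE; 95% interval −0.51 to 0.16, limma adjusted p = 0.434), and was −0.08 without combined mice 2 and 4.

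Apoc3, whose product restrains lipolysis and thus opposes apolipoprotein A5, read 17.50, 17.38, 17.63, 17.27 and 17.27 in combined mice, 17.31, 17.44, 17.41, 17.48 and 17.45 with PM2.5, 17.39, 17.20, 17.18, 17.23 and 17.32 with metformin, and 17.43, 17.41, 17.37, 17.22 and 17.35 in filtered air. The metformin mice tended to the low end, at 17.26 ± 0.09, but overlapped every other group. Apoc3 stood 0.15 higher with PM2.5 than with metformin (−0.07 to 0.37, limma adjusted p = 0.517) and 0.09 lower with metformin than in filtered air (log2 difference −0.09, adjusted p = 0.694).

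Apoc1, a small apolipoprotein known to hinder receptor uptake of remnants, read 17.33, 17.66, 17.34, 17.36 and 17.23 in combined mice, 17.49, 17.24, 17.15, 17.45 and 17.10 with PM2.5, 17.42, 17.23, 17.21, 17.20 and 17.28 with metformin, and 17.42, 17.27, 17.32, 17.31 and 17.26 in filtered air. One array, combined mouse 2, was high, and all groups overlapped. Its largest difference between groups was the combined group minus metformin, 0.12 (−0.12 to 0.36, limma adjusted p = 0.527), and it was 0.03 (adjusted p = 0.907) without combined mice 2 and 4.

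Apoe, the ligand for remnant uptake and the next gene to Apoc1 on chromosome 7, was the brightest of the 9, with only 2 genes of higher mean signal on the array. It read 18.67, 18.77, 18.55, 18.65 and 18.69 in combined mice, 18.67, 18.75, 18.72, 18.70 and 18.71 with PM2.5, 18.66, 18.55, 18.55, 18.66 and 18.63 with metformin, and 18.63, 18.62, 18.63, 18.69 and 18.60 in filtered air. All 5 PM2.5 mice lay above all metformin mice, by a mean of 0.10 (−0.09 to 0.30, limma adjusted p = 0.654), a separation shown by 4.23% of tested genes. Macrophages also make Apoe, and 11 of 12 markers of Kupffer cells, the liver's macrophages, were measured. Their summed log2 level was 11.60 to 15.11 in the combined group, 14.34 to 15.18 with PM2.5, 13.48 to 13.98 with metformin and 14.02 to 14.98 in filtered air. In the combined group 8 of the 11 fell relative to PM2.5, where 4.73% of tested genes fell, and 6 fell relative to filtered air, where 16.2% did. The summed level in combined mice 1 to 5 was 13.35, 11.60, 12.83, 13.18 and 15.11. With the negative-control median of each array as a covariate 0 and 0 fell, and 1 rose relative to filtered air. Without combined mice 2 and 4, 1 and 2 fell, and 1 rose relative to filtered air. Apoe itself differed by −0.04 from PM2.5 (−0.24 to 0.15) and by 0.03 from filtered air (−0.16 to 0.23), and by −0.07 and 0.003 without these 2 mice. The part of macrophages in the Apoe signal was not tested.

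Apoa1, the main protein of HDL, read 18.29, 17.97, 18.41, 18.12 and 18.44 in combined mice, 18.28, 18.13, 18.40, 18.41 and 18.45 with PM2.5, 18.21, 18.28, 18.47, 18.36 and 18.41 with metformin, and 18.30, 18.48, 18.24, 18.29 and 18.28 in filtered air. The lowest values were those of combined mice 2 and 4, the arrays that stood apart. The combined group minus PM2.5 was −0.09 with them (−0.33 to 0.15, limma adjusted p = 0.684) and 0.05 without them (adjusted p = 0.901). Its other differences lay between −0.12 and 0.03 with all mice, counting the interaction. Across the 20 arrays, the Apoa1 deviations from the group means had a correlation of −0.65 with those of the negative-control median. For the other 8 genes this correlation ran from −0.25 for Apoa4 to 0.53 for Apob, and for Apoa5 it was −0.11.

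Apoa2, the second protein of HDL, read 18.39, 18.55, 18.33, 18.32 and 18.39 in combined mice, 18.35, 18.43, 18.35, 18.47 and 18.46 with PM2.5, 18.32, 18.34, 18.39, 18.41 and 18.33 with metformin, and 18.51, 18.47, 18.45, 18.44 and 18.39 in filtered air. In the metformin and combined groups 4 of 5 mice lay below the lowest filtered-air mouse. The metformin difference from filtered air was −0.09 (−0.29 to 0.10, limma adjusted p = 0.648) and the combined difference −0.06 (−0.25 to 0.14, adjusted p = 0.684; −0.08 without combined mice 2 and 4).

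Apoa4, made by the intestine and, in mice with fatty liver, by the liver, varied most among mice. It read 17.88, 17.31, 17.88, 17.38 and 18.17 in combined mice, 17.86, 18.00, 17.62, 17.76 and 18.20 with PM2.5, 18.24, 17.64, 18.29, 17.32 and 17.61 with metformin, and 17.17, 18.02, 17.58, 17.89 and 17.84 in filtered air. Every group held both high and low mice, and all overlapped. The lowest combined values were again those of mice 2 and 4. PM2.5 minus filtered air was 0.19 ± 0.21 (SE; −0.24 to 0.62, limma adjusted p = 0.634), and the combined group minus PM2.5 −0.17 (−0.60 to 0.26, adjusted p = 0.660), which was 0.09 (adjusted p = 0.903) without combined mice 2 and 4. Of 5 enterocyte markers, all measured, Cdh17, Sis and Lct lay below the negative-control median in every group, and Vil1 averaged 4.89 to 5.17, under the 95th percentile of the negative controls. Fabp2, a fatty acid binding protein gene of the intestine, read far above it, with means of 15.49 in the combined group, 15.51 with PM2.5, 15.63 with metformin and 15.94 in filtered air. The summed level of the 5 was 15.14 to 15.66 in the combined group, 15.16 to 15.88 with PM2.5, 15.17 to 15.86 with metformin and 15.47 to 16.22 in filtered air, and its part in the Apoa4 signal was not tested.

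In the other comparisons, 0 of the 9 genes passed: PM2.5 set against filtered air, where 5.17% of all tested genes passed, the combined group set against either PM2.5 (11.7%) or metformin (16.3%), PM2.5 set against metformin (1.59%) and the interaction (0.186%). At an unadjusted p under 0.05 there was 1, Apoa5 in PM2.5 against metformin. For the 8 genes other than Apoa5, differences between groups lay between −0.17 and 0.19, and no 95% interval of a comparison between 2 groups reached below −0.60 or above 0.62. When combined mice 2 and 4 were left out, the 24 differences of these 8 genes in the combined group lay between −0.12 and 0.27, and 0 passed (lowest limma adjusted p 0.351). Over the 9 genes, the median difference was 0.03 for the combined group, 0.05 for PM2.5 and −0.02 for metformin, each against filtered air, beside medians of 0.01, 0.02 and 0.00 over all tested genes.

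**Figure D2:**
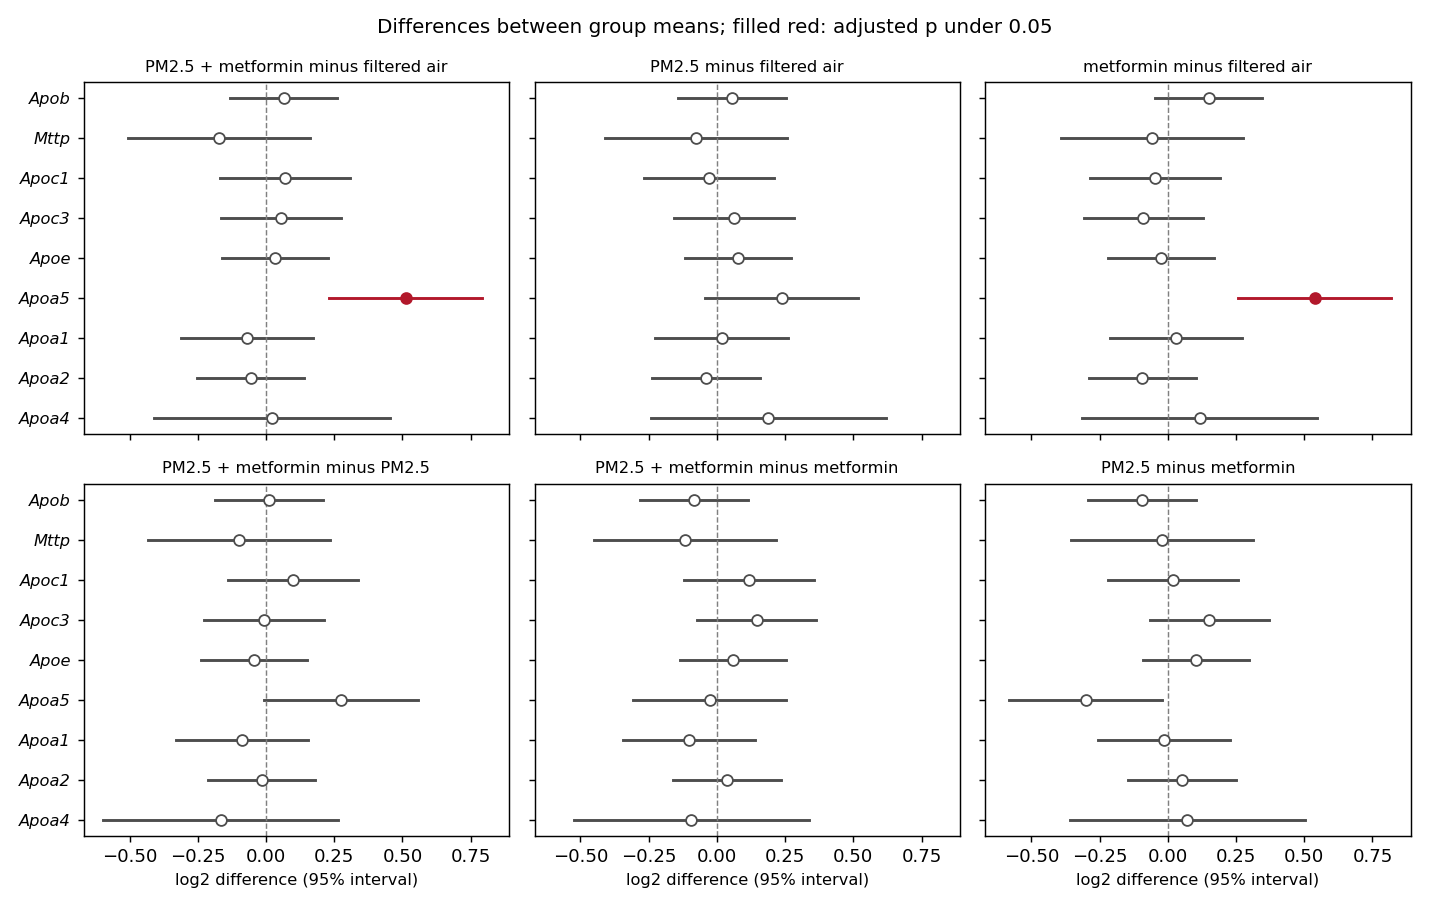
Log2 difference between group means (horizontal axis) with its 95% interval for each of the 9 genes in the 6 comparisons between groups; filled red points have a limma adjusted p under 0.05. Apoa5 is red against filtered air in the combined group (0.51) and with metformin (0.54), and open with PM2.5 alone (0.24).

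Most of the 9 genes read near the top of the scale. Apart from Apoa5 and Mttp, the genes had mean signals of 17.31 to 18.65, where the brightest probe set of an array read 18.69 to 19.03. Of 86 tested genes with a mean of at least 17.31, 14 passed in the combined group against filtered air (16.3%), 1 with metformin (1.16%) and 0 with PM2.5, and their median within-group SD was 0.12 against 0.29 for all tested genes. Whether such bright signals follow RNA amounts in proportion was not tested. The within-group SD of the 9 genes ran from 0.05 for Apoe to 0.35 for Apoa4, and was 0.19 for Apoa5 and 0.25 for Mttp.

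From mouse to mouse, pairs of the 9 genes varied in the same and in opposite directions. Over the 36 pairs of genes, the correlation of deviations from the group means across 20 arrays had a median of −0.01, with 18 pairs above 0. The range ran from −0.56 for Apoa1 with Apoc1 to 0.55 for Apoa1 with Mttp (−0.42 and 0.50 without combined mice 2 and 4). Apoc1 with Mttp stood at −0.54, Apoa1 with Apoe at −0.50, Apoa5 with Mttp at −0.48 and Apoa2 with Apoe at 0.51. The arrays share their preparation, and Apoa1, Apob, Apoe and Apoa2 also varied with the negative-control median (−0.65, 0.53, 0.50 and 0.48), so these are descriptions only. Within the chromosome 9 cluster, Apoa1 and Apoa4 had a correlation of 0.42 and Apoa4 and Apoa5 one of 0.03.

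**Figure D3:**
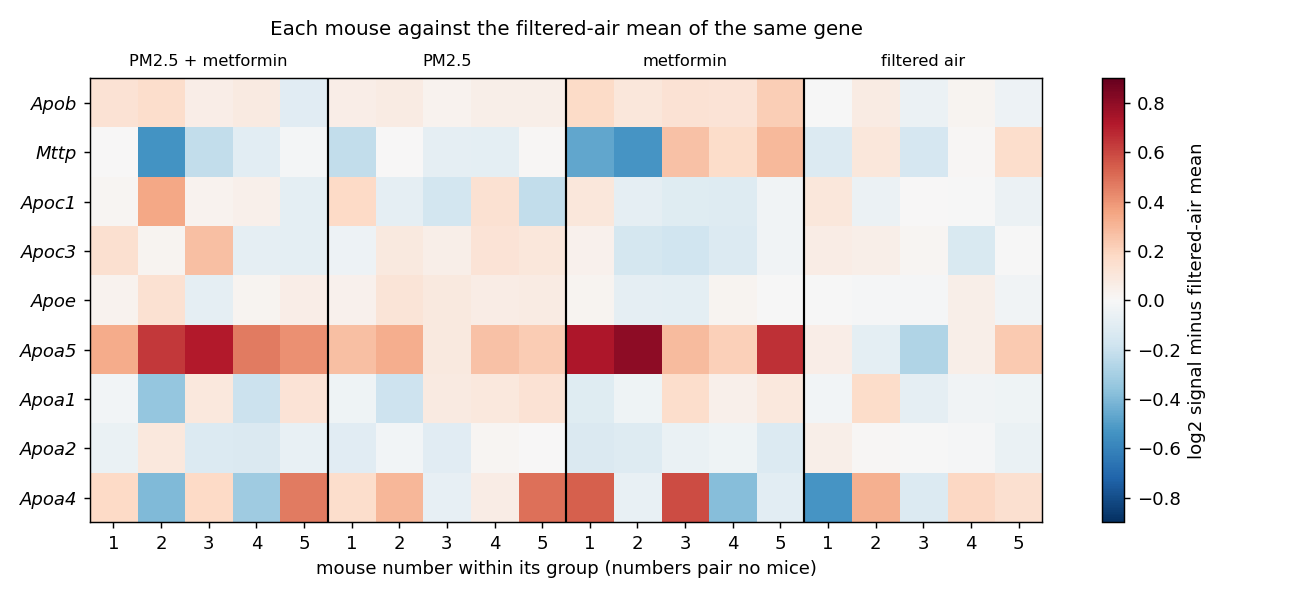
Colour gives the log2 signal of each mouse (columns, by group) minus the filtered-air mean of the same gene (rows). The Apoa5 row lies above the filtered-air mean in all combined, PM2.5 and metformin mice, and Apoa4 and Mttp show single mice in opposite directions within groups.

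The 3 tested genes whose signal over the 20 arrays was most like that of Apoa5 were Ahcy (Pearson r 0.84, Spearman rho 0.85), Rdh7 (0.84 and 0.86) and Dop1a (0.82 and 0.82). Ahcy codes for the enzyme that hydrolyses S-adenosylhomocysteine, and Rdh7 for a retinol dehydrogenase. With group means removed, the correlations were 0.72, 0.50 and 0.61. Ahcy averaged 17.59 in the combined group, 17.45 with PM2.5, 17.56 with metformin and 17.28 in filtered air. It was picked by likeness to Apoa5 with group means included, so a similar order of means follows from the choice. Ahcy did not pass against filtered air in the combined group (limma adjusted p = 0.0544) or with metformin (adjusted p = 0.212).

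Among 20 partner genes of VLDL assembly and secretion, all tested, 4 rose and 7 fell in the combined group against filtered air, 1 rose with metformin and 0 passed with PM2.5. Of all tested genes, 18.7% rose and 16.2% fell in the combined group, 2.67% rose and 2.5% fell with PM2.5, and 1.26% rose and 1.89% fell with metformin. Mia3, which codes for the TANGO1 protein that helps load bulky cargo at endoplasmic reticulum exit sites, read 13.10, 13.32, 12.98, 13.38 and 12.62 in combined mice, 12.11, 12.24, 12.01, 11.71 and 12.27 with PM2.5, 12.30, 12.08, 12.31, 12.45 and 12.53 with metformin, and 11.17, 11.46, 11.77, 11.81 and 11.66 in filtered air. All combined mice lay above every PM2.5 and filtered-air mouse, and all metformin mice above filtered air. Of tested genes, 20.8% separated the combined mice from filtered air, 6.34% from PM2.5, and 6.75% separated metformin from filtered air. Mia3 rose by 1.50 ± 0.16 in the combined group (SE; limma adjusted p = 4.29e-06) and by 0.76 ± 0.16 with metformin (adjusted p = 0.0130), and it stood 0.49 higher with PM2.5, which did not pass (adjusted p = 0.0711). The metformin call was lost with the negative-control covariate (0.58, adjusted p = 0.0540).

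P4hb, protein disulfide isomerase and the small subunit of the transfer protein, rose where Mttp did not. Its signals were 15.80, 16.41, 15.62, 16.18 and 15.09 in combined mice, 15.14, 15.38, 14.67, 14.56 and 15.04 with PM2.5, 15.16, 15.07, 15.58, 15.38 and 15.40 with metformin, and 14.84, 14.90, 14.73, 14.83 and 14.61 in filtered air. Combined mice 2 and 4 were the highest. It rose by 1.04 ± 0.20 in the combined group against filtered air (SE; limma adjusted p = 0.000491) and by 0.73 (adjusted p = 0.0112) without these 2 mice. The call was lost with the negative-control covariate (difference 0.45, adjusted p = 0.105). Whether the P4hb and Mttp differences themselves differ was not tested.

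The other VLDL partners moved both ways. Tmem41b, a lipid scramblase of the endoplasmic reticulum needed for VLDL output in mice, fell by 1.23 in the combined group against filtered air (limma adjusted p = 0.000189), and by 0.88 (adjusted p = 0.00372) without combined mice 2 and 4. Sar1b and Sec23a, parts of the COPII coat that carries VLDL out of the endoplasmic reticulum, and Apobec1, the enzyme that edits Apob mRNA, fell as well (log2 differences −0.62, −0.66 and −1.17), by less without combined mice 2 and 4 (−0.39, −0.41 and −0.87). These 3 calls were lost with the negative-control covariate (limma adjusted p 0.217, 0.223 and 0.157). Against PM2.5, Mia3 rose by 1.01 and P4hb by 0.86, and Sar1b fell by 0.49, and against metformin, Mia3 rose by 0.75, and Sec23a fell by 0.80 and the chaperone gene Hspa5 by 1.02. The Sar1b call against PM2.5 was lost without any 1 of PM2.5 mice 1, 3 or 4 or combined mice 2 or 4 (−0.40 to −0.48, adjusted p up to 0.0871). Without combined mice 2 and 4, the counts of genes that rose and fell were 4 and 6 against filtered air (4 and 7 with them), 1 and 0 against PM2.5 (2 and 3 with them), and 0 and 1 against metformin (3 and 4 with them). With the negative-control covariate they were 2 and 1 against filtered air, 1 and 0 against PM2.5, and 1 and 2 against metformin. With all mice, 6.95% of all tested genes rose and 4.73% fell against PM2.5, and 9.69% rose and 6.63% fell against metformin. The median difference in the combined group against filtered air was 0.02, beside 0.01 over all tested genes.

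Of 15 receptor and clearance genes 11 were tested, and the others were not analysed here. In the combined group against filtered air 2 rose and 2 fell, with PM2.5 2 rose, and with metformin 1 fell. With the negative-control covariate 2 rose and 0 fell in the combined group. Over all tested genes, without the covariate, 18.7% rose and 16.2% fell in the combined group. With PM2.5 2.67% of them rose, and with metformin 1.89% fell. Scarb1, the HDL receptor SR-BI, rose by 1.28 ± 0.19 in the combined group (SE; limma adjusted p = 5.46e-05) and by 0.79 ± 0.19 with PM2.5 (adjusted p = 0.0189). The PM2.5 call was lost, with a difference of 0.68 to 0.73, when PM2.5 mouse 2 or 5 or filtered-air mouse 2 was left out (adjusted p 0.0704, 0.0670 and 0.0556). Lrp1, an endocytic receptor for remnants that contain apolipoprotein E, read 12.87, 14.16, 13.07, 14.40 and 13.01 in combined mice, 11.97, 12.46, 12.01, 12.15 and 12.51 with PM2.5, 12.28, 12.56, 12.44, 12.56 and 12.20 with metformin, and 11.64, 11.52, 11.96, 12.31 and 11.78 in filtered air. Every combined mouse exceeded all PM2.5 and filtered-air mice, mice 2 and 4 the most. Such a separation was shown by 20.8% of tested genes against filtered air and 6.34% against PM2.5. The rise over filtered air was 1.66 (limma adjusted p = 5.57e-05) with combined mice 2 and 4 and 1.14 (adjusted p = 0.000399) without them.

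Lrpap1, the chaperone of the same receptor family, fell by 0.92 in the combined group against filtered air (limma adjusted p = 0.000297; 0.0521 with the negative-control covariate). Mylip, a ubiquitin ligase, rose by 1.01 with PM2.5 (adjusted p = 0.0150), a call kept when any 1 mouse was left out. Gpihbp1, which holds lipoprotein lipase on capillary endothelium and so is not a hepatocyte gene, fell by 0.62 with metformin (adjusted p = 0.0437; 0.151 with the negative-control covariate). This call was lost in 11 of the 20 settings without 1 mouse, those without filtered-air mice 1, 2 or 5, any metformin mouse, PM2.5 mice 3 or 5 or combined mouse 3, with differences of −0.50 to −0.65 and the adjusted p reaching 0.130. The endothelial markers, all 8 measured, had a summed log2 level of 12.94 to 14.54 in the combined group, 14.55 to 14.95 with PM2.5, 14.16 to 14.77 with metformin and 14.44 to 14.86 in filtered air. With metformin 1 of the 8 fell against filtered air (median difference −0.25), where 1.89% of all tested genes fell. In the combined group 4 fell against PM2.5 (median −0.61), where 4.73% of all tested genes fell, and 2 fell without combined mice 2 and 4. With the negative-control covariate 0 of the 8 fell in either comparison. The part of these markers in the Gpihbp1 differences was not tested. Against PM2.5, Lrp1 rose by 1.28 in the combined group, and Lrpap1 fell by 0.82 and Gpihbp1 by 0.68. With the negative-control covariate these 3 calls were lost (0.73, −0.56 and −0.52, adjusted p 0.129, 0.158 and 0.245). Against metformin, Lrp1 rose by 1.09 and Scarb1 by 0.70, the call of Scarb1 being lost without combined mouse 4 (adjusted p = 0.0501). Without combined mice 2 and 4, 1 gene, Lrp1, passed against PM2.5 and 0 against metformin.

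Of 10 genes of HDL remodelling and sterol export, 3 rose and 1 fell in the combined group against filtered air, 1 rose with PM2.5 and 0 passed with metformin. With combined mice 2 and 4 left out, 3 rose and 0 fell in the combined group, and with the negative-control covariate 1 rose and 0 fell. Among all tested genes, with all mice and no covariate, 18.7% rose and 16.2% fell in the combined group. With PM2.5 2.67% of them rose, and with metformin 3.15% passed. Lcat, the plasma enzyme that esterifies HDL cholesterol with apolipoprotein A1 as its activator, read 15.12, 15.98, 15.80, 15.65 and 15.35 in combined mice, 14.58, 14.996, 14.43, 14.60 and 15.22 with PM2.5, 14.84, 14.79, 14.72, 14.70 and 14.28 with metformin, and 13.88, 13.84, 14.13, 14.64 and 13.89 in filtered air. Every combined mouse lay above all filtered-air mice, as in 20.8% of tested genes, while PM2.5 mouse 5 lay within the combined range. Lcat rose by 1.50 ± 0.19 in the combined group (SE; limma adjusted p = 1.59e-05) and by 0.69 ± 0.19 with PM2.5 (adjusted p = 0.0391). The PM2.5 call was lost in 6 of the 20 settings without 1 mouse, those without filtered-air mice 1, 2, 3 or 5 or PM2.5 mice 2 or 5 (0.58 to 0.70, adjusted p up to 0.128). Lcat also rose in the combined group by 0.82 over PM2.5 (adjusted p = 0.00952; 0.66 and adjusted p = 0.127 without combined mice 2 and 4) and by 0.92 over metformin (adjusted p = 0.00365). Abcg8 also passed against metformin (0.99), a call lost without metformin mice 3, 4 or 5 or combined mice 2 or 3 (adjusted p up to 0.0766). Abca1 and Abcg8, sterol exporters, rose by 0.54 and 1.04 in the combined group against filtered air, and lost the call with the negative-control covariate (adjusted p 0.225 and 0.171).

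Of 13 further apolipoprotein genes, 10 were tested, and in the combined group against filtered air 2 rose (Apon by 0.87 and Clu, which codes for apolipoprotein J, by 0.56) and 1 fell (Apool, by 0.90), all 3 calls lost without combined mice 2 and 4 (limma adjusted p 0.0665 to 0.110) and with the negative-control covariate. Apol6 rose by 0.52 with metformin (adjusted p = 0.0317), at a mean signal of 5.80 with metformin and 5.28 in filtered air, below the 95th percentile of the negative controls, and lost the call without any 1 of 6 mice: filtered-air mice 1, 2 or 5 or metformin mice 2, 3 or 5. Apon also rose by 0.79 in the combined group against metformin, a call lost without metformin mice 1 or 5 or combined mice 2, 3 or 4 (adjusted p up to 0.0948). With PM2.5, 0 passed. Over all tested genes, 18.7% rose and 16.2% fell in the combined group against filtered air, and 9.69% rose against metformin. With metformin 1.26% of them rose against filtered air, and with PM2.5 5.17% passed.

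**Figure D4:**
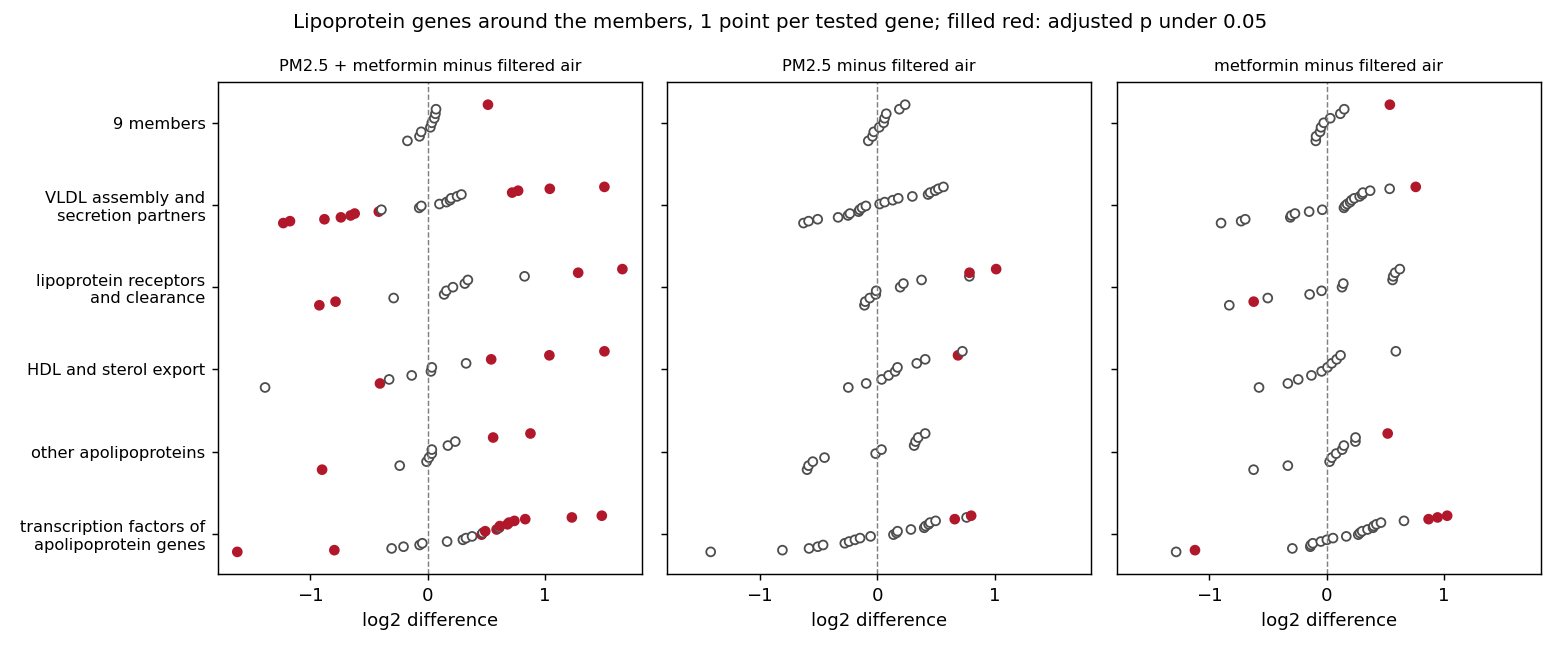
Log2 difference from filtered air (horizontal axis) of every tested gene in 6 lists, 1 point per gene, filled red where the limma adjusted p was under 0.05; the vertical offset within a list only separates points. The 9 members cluster around 0 apart from Apoa5, while the other lists spread on both sides, most widely in the combined group.

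Transcription factors known to act on apolipoprotein genes formed the last list, with 22 of 25 tested and the others not analysed here. In the combined group against filtered air 10 rose and 2 fell, 8 and 2 without combined mice 2 and 4, and 6 and 0 with the negative-control covariate. With PM2.5 2 rose, and with metformin 3 rose and 1 fell. The median difference was 0.46 in the combined group, 0.15 with PM2.5 and 0.28 with metformin, beside 0.01, 0.02 and 0.00 over all tested genes. Of all tested genes, 18.7% rose and 16.2% fell in the combined group, 2.67% and 2.5% with PM2.5, and 1.26% and 1.89% with metformin. With the covariate, 1054 of all tested genes passed in the combined group against filtered air, where 4136 did without it. Creb3l3, a liver transcription factor that activates Apoa4, Apoa5 and Apoc2 in mice, read 13.61, 13.38, 13.70, 13.75 and 14.14 in combined mice, 13.82, 14.03, 13.69, 13.44 and 13.83 with PM2.5, 13.81, 13.95, 14.59, 14.07 and 14.22 with metformin, and 13.03, 13.02, 13.37, 13.09 and 13.00 in filtered air. Every mouse of the other 3 groups lay above all filtered-air mice, combined mouse 2 only just. Such a separation from filtered air was shown by 20.8% of tested genes in the combined group and 6.75% with metformin. The share with PM2.5 is not given here.

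Creb3l3 rose by 0.61 in the combined group (limma adjusted p = 0.00519), by 0.66 with PM2.5 (adjusted p = 0.0198) and by 1.03 with metformin (adjusted p = 0.000953). Leaving out PM2.5 mouse 2 or 5, or the first filtered-air mouse, ended the PM2.5 call (0.59 to 0.64, adjusted p 0.0785, 0.0545 and 0.0531). Ppara, a nuclear receptor for fatty acids that activates APOA5 in human liver cells, read 13.00, 12.80, 13.32, 12.95 and 13.95 in combined mice, 12.98, 13.45, 12.95, 12.54 and 13.14 with PM2.5, 13.57, 13.63, 13.60, 13.15 and 13.34 with metformin, and 12.37, 12.37, 12.67, 12.77 and 12.39 in filtered air. It rose by 0.94 with metformin (adjusted p = 0.00975) and by 0.69 in the combined group (adjusted p = 0.00823), and stood 0.50 higher with PM2.5, which did not pass (adjusted p = 0.128). Mlxipl, the glucose-sensing factor ChREBP, fell by 1.12 with metformin (adjusted p = 0.0173; 0.0502 without filtered-air mouse 1 and 0.0572 without metformin mouse 3) and by 0.80 in the combined group (adjusted p = 0.0162; 0.0661 with the negative-control covariate). These comparisons share the filtered-air mice, so their values are given side by side only, and whether any factor's level bears on Apoa5 was not tested.

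Further factors passed in the combined group. Prox1, a repressor partner of HNF4A, rose by 1.23 against filtered air and by 0.87 with metformin, Foxo1, the insulin-restrained forkhead factor that activates Mttp and Apoc3, by 1.48 in the combined group and by 0.80 with PM2.5 (limma adjusted p = 0.0375), and Hnf4a, the hepatocyte factor behind most of these genes, by 0.59 in the combined group (adjusted p = 0.00352). With the negative-control covariate, the calls of Prox1 with metformin (adjusted p = 0.0528) and of Hnf4a (0.0729) were lost. Foxo1 with PM2.5 lost its call without any 1 of 6 mice, filtered-air mice 1 or 2 or PM2.5 mice 1, 2, 3 or 5 (0.62 to 0.84, adjusted p up to 0.122), and its signal lay near the 95th percentile of the negative controls (mean 8.99 in the combined group, 7.50 in filtered air). Against PM2.5, 6 factors rose in the combined group, led by Prox1 (0.79), Nr5a2 (0.60) and Foxa2 (0.95), and against metformin 4 did, led by Foxo1 (0.82), Nr1d1 (0.88) and Foxa2 (0.81). Among all tested genes, 6.95% rose against PM2.5 and 9.69% against metformin. Against PM2.5 the Foxa2 call was lost without combined mouse 3 (adjusted p = 0.0535). Against metformin Foxa2 lost it without metformin mice 1, 3 or 5 or combined mice 3 or 5, and Nr1d1 without metformin mouse 3 or combined mice 2 or 4 (adjusted p up to 0.0940). Without combined mice 2 and 4 it was 1 factor in each, Foxa2, which had a mean signal of 7.71 in the combined group, below that percentile, and with the negative-control covariate also 1 in each. In PM2.5 against metformin and in the interaction, 0 genes of any of these 5 lists passed with all mice and no covariate. Of the related genes named here as passing, 18 of 21 kept the call without combined mice 2 and 4 in the combined group against filtered air, 3 of 10 against PM2.5 and 3 of 11 against metformin. With the negative-control covariate 9, 2 and 6 kept it.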

How the data were processed

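Liver RNA was measured on 20 arrays, 1 per mouse, with 5 mice in each of 4 groups taken from the sample labels. The authors deposited log2 signals, 1 per probe set. Per the submitters' processing notes these came from Affymetrix Expression Console; its version, summary method and normalization are not given in the sources used here. The probe set identifiers belong to another array type than the series text names, so gene symbols came from the platform table in which these identifiers occur. The 28846 probe sets included 6640 controls. Where a gene had more than 1 probe set, the brightest on average stood for it. Dim genes, up to the 40th percentile of mean signal (log2 4.05), were removed, and 11844 genes stayed. This limit is under the typical negative-control median (4.49), so the test includes genes at background. The number of arrays, not a read depth, sets the precision.

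One limma model (version 3.58.1, R 4.3.3) of 4 group means with eBayes gave 6 comparisons between groups, the interaction and an F test, two-sided, with Benjamini-Hochberg adjustment over 11844 genes and a threshold of 0.05. The model takes 1 residual variance per gene from all groups. The fit was tested on simulated data. The gene members, the related lists and the cell type markers were chosen with earlier results of these data known. All members are named. From each related list the text names up to 3 passing genes of lowest p per comparison, and for Apoa5, the gene that passed the F test, the 3 most correlated genes; Apobec1, Sec23a and Sar1b against filtered air, Mlxipl, and Creb3l3 and Ppara in the combined group were named after their values were seen. Nothing in the labels says whether mice were housed or processed apart, so p-values measure the spread between these mice. Alternatives were filters, scalings, probe set choices, array weights, eBayes options, a negative-control covariate, fits of the compared arrays alone, each mouse left out, and combined mice 2 and 4 left out. For the related genes and the marker lists these were added after the data were seen.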

Additional observations from a re-analysis of the deposited data

Results flagged for a closer look

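The Apoa1 signal of filtered-air mouse 2 was 18.48, apart from the other 4 filtered-air mice at 18.24 to 18.30. Its gap to the nearest of them was 0.772 of the range of the group, above the critical value of 0.71 for 5 samples. It was 1 of 36 sets of 5 mice examined (9 genes in 4 groups), and chance marks about 1 in 20 such sets. No comparison of Apoa1 passed with or without this mouse.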

How the results depend on the processing

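No paired analysis was possible because the mouse numbers were given in the order of the samples and pair no mice. Of 2214 values of the 9 genes under alternatives, 2123 kept their direction and call, 81 uncalled values near 0 moved across it, 10 lost a call and 0 changed direction as called values. The number of genes called with metformin, 1, was 0 with the negative-control covariate (Apoa5 0.56, limma adjusted p = 0.0665) and with only the compared arrays (0.54, adjusted p = 0.0619), and 0 to 1 when 1 mouse was left out. It was 0 with the covariate in the combined group against filtered air (Apoa5 adjusted p = 0.0528) and in the F test (F 5.25, adjusted p = 0.0528). The cause was not tested. Apoa5 was called in 23 of 31 settings with metformin (0.47 to 0.62, adjusted p 0.0109 to 0.0886) and in 30 of 31 in the combined group (0.45 to 0.59, adjusted p 0.00162 to 0.0528). Counts over all genes depended more on the setting: 612 with PM2.5 (208 without PM2.5 mouse 2, 1376 with array weights), 373 with metformin (147 with the covariate, 854 with array weights), and 4136 in the combined group against filtered air (1054 with the covariate). They were 1383 in the combined group against PM2.5 (79 with the covariate, 2143 without combined mouse 5), 1933 against metformin (499 without combined mice 2 and 4), and 188 in PM2.5 against metformin (49 without PM2.5 mouse 5, 472 with array weights). The interaction had 22 (7 without metformin mouse 3, 289 without combined mouse 5), and the F test 3807 (1598 with the covariate). Of 1673 values of related genes under alternatives, 124 lost a call and 0 changed direction. The signals of 7 of the 9 genes lay near the top of the array's scale, and whether they follow RNA amounts in proportion was not tested.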
